A study of Mus musculus with 19 samples.

Results

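The genes described are the metalloprotease families of the matrix and cell surface and their inhibitors in mouse lung: the matrix metalloproteinases (MMP), the a disintegrin and metalloproteinase family (ADAM), its members with thrombospondin motifs (ADAMTS), the ADAMTS-like proteins (ADAMTSL) and the tissue inhibitors of metalloproteinases (TIMP). They were taken by symbol from the deposited table of counts, with at least 20 counts summed over 19 libraries, and *Mmp12* and *Mmp8* were left out by the rule. The rule found 62 members among 49585 genes, with 16 MMP, 20 ADAM, 17 ADAMTS, 5 ADAMTSL and 4 TIMP genes. A further 20 matching names fell short of the minimum, 14 of them with no count at all. *Adamts18*, with 5 summed counts, was just outside it, and *Adam32* and *Adam30*, with 21 each, were just inside.

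Total RNA of whole lung was sequenced from female Balb/c mice, aged 6 to 8 weeks on entry to the experiment and older by the length of the protocol when the lungs were taken, 1 library a lung. Wild-type (WT) mice and mice heterozygous for a germline deficiency of the hyaluronan synthase gene *Has2* (*Has2*+/−), backcrossed to the same strain, received either saline or ovalbumin (OVA). OVA mice were sensitised with OVA on aluminium hydroxide and then challenged intranasally for 8 weeks, and control mice had saline in both steps. Lungs were taken 1 day after the last challenge with saline or OVA. The 4 groups were WT-saline (n = 5), *Has2*+/−-saline (n = 4), WT-OVA (n = 5) and *Has2*+/−-OVA (n = 5). The heterozygotes keep 1 intact copy of *Has2*, and nothing in the labels says which mice shared a litter or cage.

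MMPs are secreted or membrane-bound zinc proteases, made as inactive precursors, which cut collagens, proteoglycans and other matrix proteins. ADAMs sit in the plasma membrane, where many shed growth factors, cytokines and receptors from the cell surface. ADAMTS enzymes are secreted and cut proteoglycans such as versican and aggrecan or trim procollagen, whereas the ADAMTSL proteins have the ancillary domains without a protease and bind the microfibrils of the matrix. TIMPs block the active site of these enzymes. In asthmatic airways the balance of proteases and inhibitors is studied as part of airway remodelling, the thickening and scarring of the airway wall.

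The promoter windows of 3 members are shown because they were the windows of the families with the letters of an AP-1 site, the element long known from the genes of collagenase and stromelysin, and 2 of the 3 genes, *Mmp13* and *Adam19*, rose under OVA. RefSeq windows (GRCm38.p6, 250 bases before to 50 after each gene's start) matched 37 of the 62 members, in 40 windows. AP-1 was searched as TGANTCA and the TATA box as TATAAA, on both strands. Neither search overlaps the other. All 3 windows are on the plus strand, *Mmp13* at chr9:7272264-7272563, *Mmp3* at chr9:7445572-7445871 and *Adam19* at chr11:46055734-46056033, and capitals mark the matches to both motifs.
Mmp13: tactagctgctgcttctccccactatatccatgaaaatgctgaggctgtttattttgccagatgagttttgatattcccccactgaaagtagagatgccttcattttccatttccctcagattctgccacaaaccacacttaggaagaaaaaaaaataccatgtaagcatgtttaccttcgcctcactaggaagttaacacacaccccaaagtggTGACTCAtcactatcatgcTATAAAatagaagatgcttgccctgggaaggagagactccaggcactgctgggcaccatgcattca
Mmp3: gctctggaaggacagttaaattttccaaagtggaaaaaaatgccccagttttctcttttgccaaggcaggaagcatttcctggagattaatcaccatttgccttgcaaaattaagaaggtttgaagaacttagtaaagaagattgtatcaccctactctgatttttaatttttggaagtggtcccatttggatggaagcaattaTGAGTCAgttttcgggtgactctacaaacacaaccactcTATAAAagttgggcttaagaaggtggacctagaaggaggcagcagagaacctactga
Adam19: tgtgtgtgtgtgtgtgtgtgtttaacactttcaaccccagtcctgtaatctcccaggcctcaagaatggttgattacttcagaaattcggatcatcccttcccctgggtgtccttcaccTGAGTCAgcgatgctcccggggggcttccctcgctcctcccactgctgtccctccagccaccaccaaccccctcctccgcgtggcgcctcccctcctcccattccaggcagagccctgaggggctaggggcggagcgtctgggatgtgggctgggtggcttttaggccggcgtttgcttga
The AP-1 letters began at −35 from the start site in *Mmp13*, −46 in *Mmp3* and −131 in *Adam19*. They were in 3 of 40 member windows (7.5%) and in 7.81% of all 32851 windows, so that the families held them about as often as other genes. The TATA letters were in 6 of 40 member windows (15%, those of *Mmp13*, *Mmp3*, *Mmp21*, *Adam6b*, *Adamts1* and *Adamtsl2*) and in 13.62% of all windows. The gene of *Mmp13* rose under OVA and that of *Mmp3*, in the same region of chromosome 9, did not pass the test, as given below.

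Libraries held 4446534 to 7048676 counts (median 5493263), and their 10 most abundant genes took 6.23 to 7.83%. The first principal component (61.8% of the variance) separated all OVA from all saline libraries. On the second (5.57%), libraries 8 and 9 (*Has2*+/−-saline) and 19 (*Has2*+/−-OVA) lay at 16.3 to 32.05 and the other 16 at −27.23 to 8.12, so counts of calls are also given without these 3 libraries. Library 9 also stood apart in cell type markers. The club cell marker *Scgb1a1* read 18137 CPM there and 7846 to 9409 in the other saline libraries. For the endothelial marker *Pecam1* the values were 687 CPM and 1017 to 1311. The cause was not tested. *Has2* itself had 1 to 4 counts a library in WT-saline, 2 to 7 in *Has2*+/−-saline, 2 to 10 in WT-OVA and 3 to 9 in *Has2*+/−-OVA. No difference between genotypes was detected under OVA (1.26 ± 0.580 CPM in WT and 0.850 ± 0.337 in *Has2*+/−, SD, n = 5 each, exact permutation p = 0.214) or under saline (exact p = 0.222), although the first p was 0.0397 without library 14 (WT-OVA). Counts this low cannot test the genotype labels.

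Levels are given as counts per 1000000 (CPM), scaled by library size and by TMM factors, which correct for a few abundant genes. Of the 62 members, 49 passed the filter on low counts and were tested: 13 MMP, 13 ADAM, 15 ADAMTS, 5 ADAMTSL and 3 TIMP genes. A member was called at an adjusted p under 0.01 over all 14495 genes tested and a fold change above 1.2, the cutoffs of the study. Per kilobase of exon, *Timp2*, an inhibitor that also takes part in the activation of MMP-2 at the cell surface, was by far the most abundant in WT-saline lungs (156.5 CPM per kilobase). *Adamts1* (42.06), the membrane-type protease gene *Mmp15* (39.5), *Adam9* (36.63), *Adamts10* (31.51) and the sheddase gene *Adam10* (30.27) followed. In the same lungs 16 members were above 10 CPM per kilobase and 24 were under 1.

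OVA changed the families in WT lungs in both directions. Of 49 members, 12 rose and 8 fell between WT-saline and WT-OVA, 40.8% in all, whereas 21.9% of all genes were called (12% higher, 9.95% lower). The median log2 fold change was 0.011, beside −0.0012 over all genes. In *Has2*+/− mice 6 members rose and 5 fell between saline and OVA, 22.4% of 49 beside 18.2% of all genes (10.5% higher, 7.72% lower), with a median of 0.0060 beside −0.0138. These 2 comparisons share no library. In WT mice the OVA libraries lay wholly above the saline libraries for 12 members and wholly below for 7, where this held for 14.1% and 13.4% of all genes, and in *Has2*+/− mice for 5 and 6 members, where it held for 11% and 7.33%. In bulk lung a rise or fall may come from more or fewer cells of a type or from more or less RNA per cell, which cannot be told apart here.

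With 1 library left out the count in WT mice was 13 to 21 and that in *Has2*+/− mice 11 to 15. In WT mice it was 13 without library 4 (WT-saline), beside 18.4% of all genes called, and also 13 without library 13 (WT-OVA), beside 18.9%. In both of these fits *Adam12*, *Adam22*, *Adam28*, *Adamts4*, *Adamts10*, *Adamtsl3* and *Mmp28* lost their calls. Without libraries 8, 9 and 19 it was 21 in WT mice (25.2% of all genes) and 16 in *Has2*+/− mice (8 higher and 8 lower, 22.9% of all genes), where *Mmp13* and *Adamtsl1* lost their calls and 7 members gained one.

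**Figure D1:**
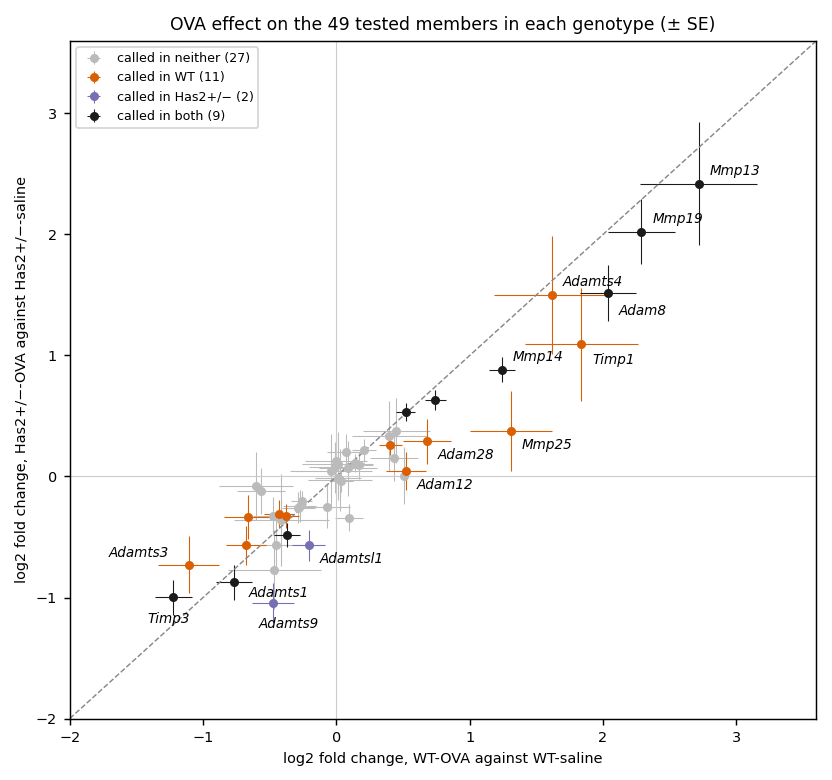
Log2 fold change of the 49 tested members between saline and OVA, in WT mice (horizontal) and *Has2*+/− mice (vertical), with bars of 1 standard error and a dashed line where both are equal. The 9 members called in both genotypes lie near the line, *Mmp13*, *Mmp19* and *Adam8* at the upper right and *Timp3* at the lower left, and 42 of 49 members have the same sign in both.

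In all, 9 members (18.4% of those tested, beside 14.3% of all genes) were called the same way in both genotypes. *Mmp13*, *Mmp19*, *Mmp14*, *Adam8*, *Adam19* and *Adam17* rose, and *Timp3*, *Adamts1* and *Adam22* fell. These 9 are 45% of the members called in WT mice and 81.8% of those called in *Has2*+/− mice, whereas over all genes the shares were 65.2% and 78.3%. A further 11 members were called only by the test in WT mice, 2 only by the test in *Has2*+/− mice and 27 by neither. The sign was the same in both genotypes for 42 of 49 members, and for 81.16% of all genes. None of the members reached the threshold in the test of the difference between the 2 responses, as given below, so a call in 1 genotype alone does not show a different response.

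**Figure D2:**
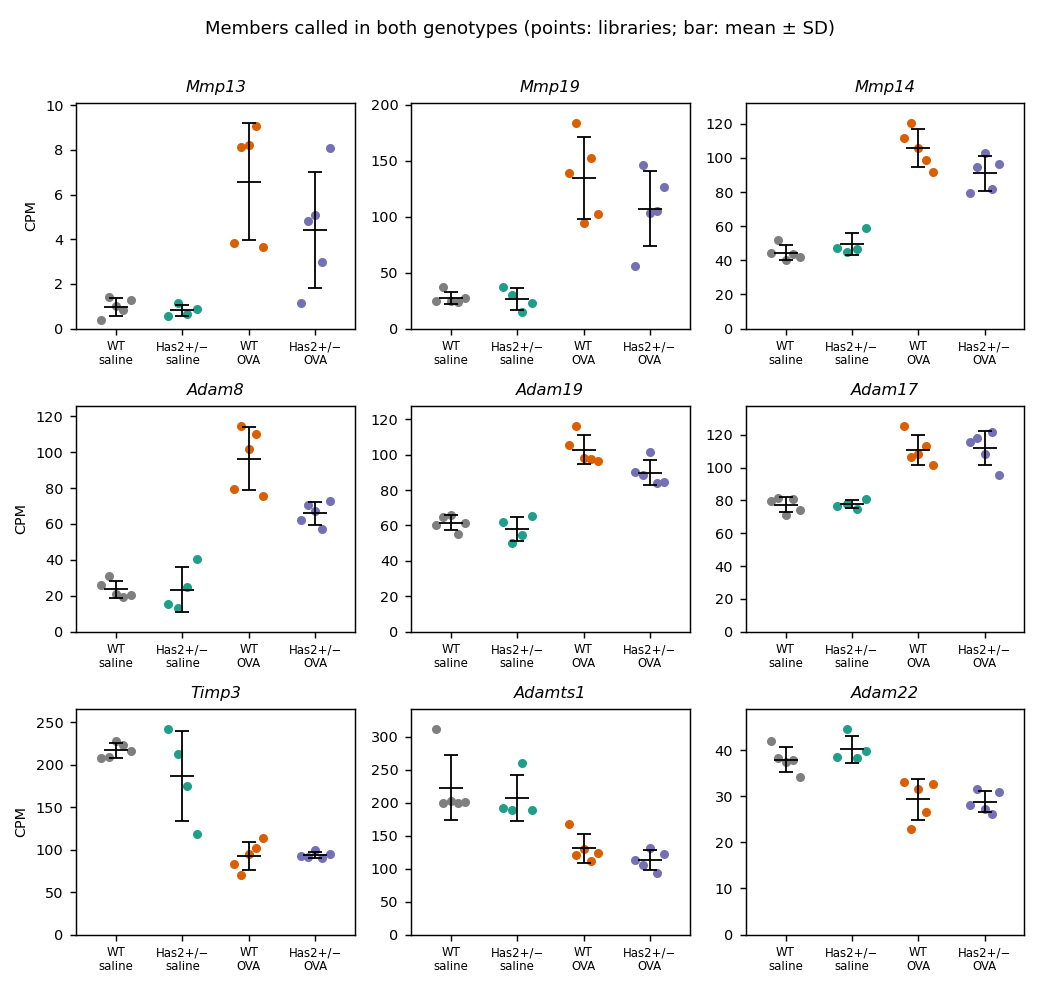
Level in CPM of the 9 members called in both genotypes, with a point for each library and the mean ± SD of each of the 4 groups. Every panel starts at 0. The 6 members of the upper rows are higher in OVA groups, with overlap only in *Mmp13* of *Has2*+/− mice, and the 3 of the bottom row are lower.

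Among secreted MMPs the largest rise was in *Mmp13* (chr9:7272514-7283331 on mm10), which encodes the main interstitial collagenase of rodents. Its CPM were 0.367, 1.41, 0.989, 0.831 and 1.26 in WT-saline, 0.581, 1.12, 0.668 and 0.869 in *Has2*+/−-saline, 3.83, 8.12, 8.20, 9.06 and 3.64 in WT-OVA and 1.12, 4.81, 5.08, 2.98 and 8.07 in *Has2*+/−-OVA. All 5 WT-OVA libraries were above all WT-saline libraries, whereas the lowest *Has2*+/−-OVA library equalled the highest *Has2*+/−-saline library to 2 decimals. The mean rose from 0.971 ± 0.407 CPM (SD, n = 5) to 6.57 ± 2.61 CPM (SD, n = 5) in WT mice, a log2 fold change of 2.72 (SE 0.44, adjusted p = 7.33e-05) in WT and 2.42 (SE 0.51, adjusted p = 0.0012) in *Has2*+/− mice by edgeR. Without libraries 8, 9 and 19 the value in *Has2*+/− mice was 2.04 with an adjusted p of 0.0194, and the call was lost. That fit kept only libraries 6 and 7 of the *Has2*+/−-saline group. The call was kept in every fit with 1 library left out, and without library 9 the value was 2.46 (adjusted p = 0.00237). The stromelysin gene *Mmp3*, chr9:7445822-7455975, lies in the same region of the chromosome and encodes an activator of other MMPs. *Mmp3* had log2 fold changes of −0.04 (SE 0.31, adjusted p = 0.937) in WT and 0.04 (SE 0.31, adjusted p = 0.939) in *Has2*+/− mice. *Mmp11*, the other stromelysin-type gene tested, had 0.07 in WT and 0.20 in *Has2*+/− and was not called.

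*Mmp19* (chr10:128790953-128800824), a secreted protease of basement membrane proteins that macrophages and vessel walls express, rose from a much higher level. Its values were 24.6, 37.0, 24.3, 24.1 and 27.3 CPM in WT-saline, 37.5, 29.8, 14.5 and 22.6 in *Has2*+/−-saline, 139, 183, 94.7, 152 and 102 in WT-OVA and 55.6, 146, 103, 105 and 126 in *Has2*+/−-OVA. Every OVA library was above every saline library in both genotypes. For *Mmp19* edgeR gave a log2 fold change of 2.29 (SE 0.25, adjusted p = 7.55e-07) in WT and 2.02 (SE 0.27, adjusted p = 1.40e-05) in *Has2*+/− mice, 4.88-fold and 4.06-fold. Exons of *Mmp19* share 789 bases with *Tmem198b* on the opposite strand, and whether counting used strand is not given in the sources used here.

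Of the gelatinases, *Mmp2* (chr8:92827291-92853420), the enzyme of fibroblasts that cuts denatured collagen and collagen IV, had CPM of 79.2, 85.5, 76.9, 78.9 and 83.3 in WT-saline, 95.1, 78.6, 74.2 and 76.5 in *Has2*+/−-saline, 105, 91.3, 125, 106 and 108 in WT-OVA and 99.7, 105, 106, 87.7 and 88.5 in *Has2*+/−-OVA. WT-OVA libraries were all above WT-saline libraries and the *Has2*+/− groups overlapped. Its log2 fold change was 0.41 (SE 0.08, adjusted p = 7.58e-04) in WT and 0.26 (SE 0.09, adjusted p = 0.0295) in *Has2*+/− mice, a call in WT mice and, without library 6, in *Has2*+/− mice as well (0.36, adjusted p = 0.00563). *Mmp9*, the gelatinase of neutrophils and macrophages, read 11.6 to 19.8 CPM in WT-saline and 8.89 to 12.6 in WT-OVA libraries, with a log2 fold change of −0.60 (SE 0.27, adjusted p = 0.0973). In *Has2*+/− mice it was −0.08 (SE 0.28, adjusted p = 0.866), with groups that overlapped widely.

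Membrane-type MMPs are anchored in the plasma membrane, and *Mmp14* (chr14:54431612-54441265) encodes the collagenase of cell surfaces that also activates MMP-2. *Mmp14* measured 44.6, 52.2, 40.3, 43.6 and 42.1 CPM in WT-saline, 47.4, 44.7, 46.8 and 59.1 in *Has2*+/−-saline, 112, 120.3, 106, 98.6 and 91.7 in WT-OVA and 79.4, 94.6, 103, 81.7 and 96.2 in *Has2*+/−-OVA. All OVA libraries lay above all saline libraries of either genotype, and library 9 was the highest of the saline libraries. The rise was 1.24 (SE 0.10, adjusted p = 9.47e-09) in WT and 0.88 (SE 0.10, adjusted p = 2.98e-06) in *Has2*+/− mice on the log2 scale. It had the smallest p of all members in WT mice. *Mmp25*, a membrane-type gene of leukocytes, rose in WT mice from 3.12 ± 0.746 CPM (SD, n = 5) to 7.73 ± 2.96 CPM (SD, n = 5), a log2 fold change of 1.31 (SE 0.31, adjusted p = 0.00227), and had 0.38 (SE 0.33, adjusted p = 0.428) in *Has2*+/− mice. The call in WT mice was lost without library 11. *Mmp15*, *Mmp16* and *Mmp17* had 0.21, −0.41 and −0.01 in WT mice and were not called in either genotype.

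In the family as a whole, 5 of 13 MMPs tested rose and 1 fell in WT mice, and 3 rose and none fell in *Has2*+/− mice, 46.2% and 23.1% called beside 21.9% and 18.2% of all genes. The gene that fell, *Mmp28*, the epithelial protease epilysin, went from 54.0 ± 6.97 CPM (SD, n = 5) to 34.0 ± 9.03 CPM (SD, n = 5) in WT mice, with groups that overlapped in library 14. Its log2 fold change was −0.66 (SE 0.18, adjusted p = 0.00576) in WT and −0.34 (SE 0.18, adjusted p = 0.183) in *Has2*+/− mice. The call of *Mmp28* in WT mice was lost without library 3, 4, 5, 10, 11 or 13.

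Macrophage markers moved in the same direction as these genes. Their summed level (6 markers, none at 0) was 307 to 448 CPM in WT-saline and 562 to 719 in WT-OVA libraries, and 287 to 369 against 550 to 626 in the *Has2*+/− groups, with 4 of 5 and 3 of 5 tested markers called higher. Neutrophil markers summed to 40.4 to 84.9 CPM in WT-saline and 32.4 to 129 in WT-OVA libraries, with 0 of 3 tested called in either genotype by edgeR and 0 at an unadjusted p under 0.05, and *Ly6g* at 0 in WT-saline. B and plasma cell markers summed to 91.5 to 161 CPM in WT-saline and 1851 to 2749 in WT-OVA libraries, with 5 of 5 called higher in both genotypes and a median log2 fold change of 2.03 in WT mice. For goblet cell markers the sums were 147 to 486 CPM and 2711 to 4121, with 4 of 4 called higher in both genotypes and a median of 3.30. Eosinophil markers summed to 17.2 to 25.3 CPM in WT-saline and 22.5 to 41.3 in WT-OVA libraries, with 2 of 4 tested called higher and 1 lower in WT mice and 1 higher in *Has2*+/− mice, and no T cell marker was called of 4 tested. The part of any of these cells in the MMP and ADAM results was not tested.

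ADAMs with protease activity rose or were not called, and none fell. Of 9 tested, beside 21.9% and 18.2% of all genes called, 5 rose in WT mice (*Adam8*, *Adam12*, *Adam17*, *Adam19* and *Adam28*) and 3 in *Has2*+/− mice (*Adam8*, *Adam17* and *Adam19*), with medians of 0.52 and 0.11 on the log2 scale. *Adam8* (chr7:139978932-139992562), a sheddase gene of leukocytes that is induced in allergic airways, changed most. *Adam8* libraries read 26.0, 30.9, 20.8, 19.3 and 20.3 CPM in WT-saline, 15.1, 13.3, 24.9 and 40.4 in *Has2*+/−-saline, 79.7, 114, 102, 110.1 and 75.8 in WT-OVA and 62.2, 70.5, 67.4, 57.1 and 72.6 in *Has2*+/−-OVA. No OVA library was as low as any saline library of its genotype. *Adam8* had a log2 fold change of 2.04 (SE 0.21, adjusted p = 4.17e-07) in WT and 1.52 (SE 0.23, adjusted p = 5.31e-05) in *Has2*+/− mice. Among the *Has2*+/−-saline libraries, library 9 was highest, and without it the rise was 1.89.

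*Adam19* (chr11:46055992-46147343), which encodes a sheddase of neuregulins that is needed for the heart valves, rose by less. It stood at 60.1, 65.1, 65.6, 55.0 and 61.4 CPM in WT-saline, 62.1, 49.98, 54.6 and 65.4 in *Has2*+/−-saline, 106, 116, 98.2, 97.8 and 96.6 in WT-OVA and 90.1, 88.6, 102, 84.2 and 84.5 in *Has2*+/−-OVA. The groups of each genotype were separate, and the log2 fold change was 0.74 (SE 0.08, adjusted p = 5.55e-07) in WT and 0.63 (SE 0.08, adjusted p = 1.41e-05) in *Has2*+/− mice. Antisense genes on the opposite strand share 587 and 480 bases of its exons.

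*Adam17* (chr12:21323509-21373632) encodes the enzyme that releases TNF and the ligands of the EGF receptor. *Adam17* gave 79.4, 81.5, 71.4, 80.8 and 74.0 CPM in WT-saline, 76.8, 78.1, 74.9 and 80.6 in *Has2*+/−-saline, 125, 106, 108, 113 and 102 in WT-OVA and 116, 118, 109, 122 and 95.5 in *Has2*+/−-OVA. Both OVA groups were above both saline groups without overlap. On the log2 scale *Adam17* moved by 0.52 (SE 0.07, adjusted p = 9.75e-06) in WT and 0.53 (SE 0.07, adjusted p = 2.29e-05) in *Has2*+/− mice, nearly the same value in both genotypes. *Adam10* (chr9:70678997-70780229), the closest relative of *Adam17* and a sheddase of Notch and of the low-affinity IgE receptor, had 154, 160.4, 137, 151 and 141 CPM in WT-saline, 139.8, 162, 142 and 123 in *Has2*+/−-saline, 172, 174, 159.7, 164 and 150.2 in WT-OVA and 145, 162, 145, 158 and 155 in *Has2*+/−-OVA. Its groups overlapped in each genotype, and the log2 fold change was 0.14 (SE 0.07, adjusted p = 0.129) in WT and 0.11 (SE 0.07, adjusted p = 0.268) in *Has2*+/− mice.

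*Adam12* and *Adam28* were called in WT mice, at 0.52 (SE 0.15, adjusted p = 0.00925) and 0.68 (SE 0.18, adjusted p = 0.00611) on the log2 scale. With 1 library left out the call of *Adam12* was lost in most fits and that of *Adam28* in several. In *Has2*+/− mice *Adam28* passed the threshold without library 9 (0.60, adjusted p = 0.0033) and without libraries 8, 9 and 19. *Adam9*, *Adam15* and *Adam33*, the last a gene known from genetic studies of asthma, had 0.04, 0.17 and −0.07 in WT mice and were not called in either genotype. Among the ADAMs without protease activity, *Adam22* (chr5:8072352-8368160), a receptor of LGI proteins in nerves, was the only member called. *Adam22* levels were 42.0, 38.4, 37.6, 37.8 and 34.2 CPM in WT-saline, 38.5, 44.6, 38.3 and 39.8 in *Has2*+/−-saline, 33.2, 22.9, 31.6, 26.7 and 32.6 in WT-OVA and 28.2, 31.6, 27.3, 26.2 and 30.9 in *Has2*+/−-OVA. All OVA libraries were below all saline libraries of the same genotype. The change in *Adam22* was, on the log2 scale, −0.37 (SE 0.10, adjusted p = 0.0049) in WT and −0.48 (SE 0.10, adjusted p = 0.00118) in *Has2*+/− mice, and the call in WT mice was lost without library 1, 3, 4, 11 or 13. *Adam11* and *Adam23* had 0.45 and −0.28 in WT mice and were not called.

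Of 15 ADAMTS genes tested, 1 rose and 3 fell in WT mice, and none rose and 2 fell in *Has2*+/− mice. These were 26.7% and 13.3%, near the 21.9% and 18.2% of all genes, and fold changes were positive for 8 of 15 in WT mice, with a median of 0.010, and for 6 of 15 in *Has2*+/− mice. *Adamts1* (chr16:85793827-85803113), a versican-cutting enzyme, was called in both genotypes. *Adamts1* reached 312, 199, 203, 199.6 and 201 CPM in WT-saline, 192, 189.8, 260.0 and 189 in *Has2*+/−-saline, 168, 121, 129.7, 112 and 123 in WT-OVA and 114, 105, 132, 93.3 and 122 in *Has2*+/−-OVA. Library 1 and library 8 stood above the other saline libraries of their groups, and OVA libraries were lower throughout. For *Adamts1* edgeR gave a log2 fold change of −0.77 (SE 0.14, adjusted p = 1.97e-04) in WT and −0.88 (SE 0.14, adjusted p = 1.29e-04) in *Has2*+/− mice. *Adamts5* (chr16:85858170-85901125), an aggrecan-cutting enzyme and its neighbour on chromosome 16, had 39.1, 33.5, 36.8, 29.9 and 33.2 CPM in WT-saline, 42.4, 47.9, 34.8 and 48.0 in *Has2*+/−-saline, 44.2, 34.3, 39.8, 33.1 and 33.0 in WT-OVA and 39.0, 31.5, 34.1, 34.8 and 31.1 in *Has2*+/−-OVA. The groups overlapped in both genotypes. *Adamts5* had a log2 fold change of 0.09 (SE 0.11, adjusted p = 0.538) in WT and −0.34 (SE 0.11, adjusted p = 0.0254) in *Has2*+/− mice.

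*Adamts9* (chr6:92772699-92943492), a proteoglycan-cutting enzyme of vessels and developing tissue, fell in *Has2*+/− mice. *Adamts9* values were 121, 181, 196, 213 and 175 CPM in WT-saline, 192, 196, 136 and 205 in *Has2*+/−-saline, 91.2, 106, 173, 139 and 129 in WT-OVA and 102, 89.6, 94.5, 76.9 and 78.6 in *Has2*+/−-OVA. In the *Has2*+/− groups all OVA libraries were below all saline libraries, whereas in WT mice library 1 lay among the OVA values. The log2 fold change of *Adamts9* was −0.47 (SE 0.16, adjusted p = 0.0249) in WT and −1.04 (SE 0.17, adjusted p = 9.76e-05) in *Has2*+/− mice, and WT mice passed the threshold too without library 1 or library 12. Exons of *Adamts9* share 1381 bases with *A730049H05Rik* on the opposite strand. *Adamts4*, an aggrecanase gene of low level, rose in WT mice from 0.603 ± 0.296 CPM (SD, n = 5) to 1.94 ± 0.542 CPM (SD, n = 5), with a log2 fold change of 1.62 (SE 0.43, adjusted p = 0.0065) in WT and 1.501 (SE 0.49, adjusted p = 0.0242) in *Has2*+/− mice. The call of *Adamts4* in WT mice was lost without library 1, 2, 3, 4, 11, 12 or 13. *Adamts8*, *Adamts15* and *Adamts20* were not called.

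Of the enzymes that trim procollagen, *Adamts3* (chr5:89677087-89883334), which also acts on the lymphatic growth factor VEGF-C, fell in WT mice. *Adamts3* CPM amounted to 5.87, 5.11, 5.73, 6.02 and 8.19 in WT-saline, 7.56, 7.30, 3.68 and 5.43 in *Has2*+/−-saline, 3.83, 3.14, 2.05, 2.27 and 3.10 in WT-OVA and 4.97, 3.70, 3.68, 2.82 and 2.88 in *Has2*+/−-OVA. WT-OVA libraries were all below WT-saline libraries, and the *Has2*+/− groups overlapped through library 8. The change in *Adamts3* was, on the log2 scale, −1.11 (SE 0.23, adjusted p = 8.77e-04) in WT and −0.73 (SE 0.23, adjusted p = 0.0228) in *Has2*+/− mice. *Adamts2* and *Adamts14* had 0.01 and −0.57 in WT mice and were not called in either genotype. *Adamts10*, which binds fibrillin microfibrils, fell in WT mice, with a log2 fold change of −0.43 (SE 0.11, adjusted p = 0.0043) and had −0.31 (SE 0.12, adjusted p = 0.0495) in *Has2*+/− mice. WT groups of *Adamts10* just overlapped, at 217.0 CPM in library 2 and 217.5 CPM in library 12. The call of *Adamts10* in WT mice was lost without library 1, 3, 4, 5, 11 or 13. *Adamts6*, *Adamts7*, *Adamts12* and *Adamts17* were not called in either genotype.

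All 5 ADAMTS-like genes had negative fold changes in both genotypes, with medians of −0.46 and −0.57 on the log2 scale beside −0.0012 and −0.0138 over all genes. In WT mice *Adamtsl3* and *Adamtsl5* were called and in *Has2*+/− mice *Adamtsl1* alone, 40% and 20% of the 5, beside 21.9% and 18.2% of all genes. *Adamtsl5* (chr10:80339110-80348412), a fibrillin-binding protein, measured 80.3, 53.6, 76.9, 65.0 and 64.7 CPM in WT-saline, 63.2, 53.2, 60.8 and 59.6 in *Has2*+/−-saline, 41.9, 52.4, 38.9, 37.6 and 41.7 in WT-OVA and 34.5, 29.8, 42.4, 33.3 and 60.5 in *Has2*+/−-OVA. WT groups did not overlap, and in *Has2*+/− mice library 19 lay among the saline values. For *Adamtsl5* edgeR gave a log2 fold change of −0.68 (SE 0.15, adjusted p = 0.00154) in WT and −0.57 (SE 0.16, adjusted p = 0.0105) in *Has2*+/− mice. The second passed the threshold without library 19 (−0.76, adjusted p = 1.96e-04), without library 2 or 11, without the filter on low counts and by DESeq2.

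*Adamtsl1* (chr4:85514172-86428385), also named punctin, had 35.4, 38.3, 35.8, 32.0 and 32.8 CPM in WT-saline, 33.9, 29.6, 33.3 and 53.5 in *Has2*+/−-saline, 27.0, 30.1, 34.8, 29.6 and 29.3 in WT-OVA and 26.5, 23.3, 26.1, 26.5 and 23.2 in *Has2*+/−-OVA. In *Has2*+/− mice the OVA libraries were all lower than the saline libraries, of which library 9 was far the highest. *Adamtsl1* had a log2 fold change of −0.21 (SE 0.12, adjusted p = 0.203) in WT and −0.57 (SE 0.13, adjusted p = 0.00227) in *Has2*+/− mice. Without libraries 8, 9 and 19 the value in *Has2*+/− mice was −0.31 with an adjusted p of 0.0346, and the call was lost. *Adamtsl3* fell in WT mice, with a log2 fold change of −0.38 (SE 0.09, adjusted p = 0.00378) and had −0.33 (SE 0.10, adjusted p = 0.0165) in *Has2*+/− mice. The call of *Adamtsl3* in WT mice was lost without library 1, 4, 11 or 13. *Adamtsl2* and *Adamtsl4*, both genes of microfibrils, had −0.46 in WT and −0.57 in *Has2*+/− and −0.48 in WT and −0.33 in *Has2*+/−.

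Of the 3 inhibitors tested, *Timp3* fell in both genotypes, *Timp1* rose in WT mice and *Timp2* was not called. The share called was 66.7% in WT and 33.3% in *Has2*+/− mice, beside 21.9% and 18.2% of all genes. *Timp3* (chr10:86300372-86349506), the inhibitor that binds to the matrix and also blocks ADAM17 and ADAMTS enzymes, fell most of all members in WT mice. *Timp3* libraries had 208, 208, 228, 223 and 216 CPM in WT-saline, 241, 213, 175 and 119 in *Has2*+/−-saline, 83.1, 70.1, 95.1, 101 and 113 in WT-OVA and 92.2, 91.0, 99.958, 90.1 and 95.3 in *Has2*+/−-OVA. No saline library was as low as any OVA library of its genotype, although library 9, at 119 CPM, stood far below the other saline libraries. The mean was 217 ± 9.05 CPM (SD, n = 5) in WT-saline and 92.6 ± 16.7 CPM (SD, n = 5) in WT-OVA, and the log2 fold change was −1.23 (SE 0.14, adjusted p = 1.17e-06) in WT and −0.9996 (SE 0.14, adjusted p = 3.22e-05) in *Has2*+/− mice. Exons of *Timp3* share 1733 bases with *Syn3*, the gene that contains it, on the opposite strand.

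*Timp1* (chrX:20870166-20874735), the soluble inhibitor that inflammation induces in many tissues, rose in WT mice from a low level. *Timp1* gave 0.733, 3.88, 1.98, 0.831 and 4.73 CPM in WT-saline, 2.76, 1.31, 1.00 and 5.43 in *Has2*+/−-saline, 6.80, 7.01, 8.81, 14.99 and 7.29 in WT-OVA and 3.85, 6.85, 6.83, 3.92 and 5.95 in *Has2*+/−-OVA. Every WT-OVA library was above every WT-saline library, library 13 highest, and the *Has2*+/− groups overlapped through library 9. The log2 fold change of *Timp1* was 1.84 (SE 0.42, adjusted p = 0.00187) in WT and 1.09 (SE 0.47, adjusted p = 0.0849) in *Has2*+/− mice, and 1.64 (adjusted p = 0.0136) in the second without library 9. *Timp2* (chr11:118301069-118355740), the most abundant, had 630.2, 558, 657, 616 and 587 CPM in WT-saline, 613, 545, 605 and 449 in *Has2*+/−-saline, 494, 485, 494, 525 and 546 in WT-OVA and 506, 457, 509, 452 and 485 in *Has2*+/−-OVA. Its WT groups did not overlap and its *Has2*+/− groups did. The log2 fold change of *Timp2* was −0.26 (SE 0.08, adjusted p = 0.0132) in WT and −0.20 (SE 0.08, adjusted p = 0.0759) in *Has2*+/− mice, neither of them a call, although the first was one without library 2 and the second without library 9.

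**Figure D3:**
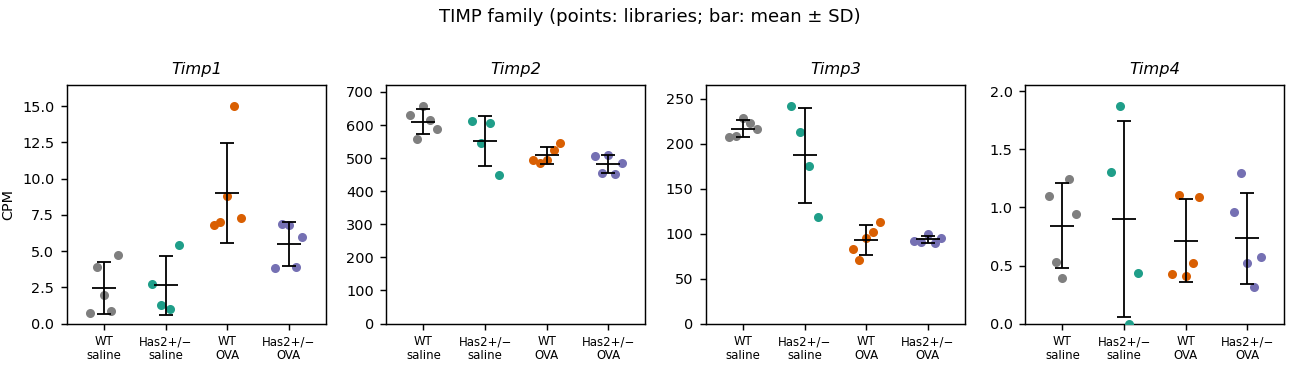
Level in CPM of the 4 TIMP genes, with a point for each library and the mean ± SD of each group, from 0 in every panel. *Timp3* is lower in OVA libraries of both genotypes and *Timp1* higher in WT-OVA than in WT-saline libraries, with overlap in the *Has2*+/− groups, while *Timp2* lies between 449 and 657 CPM in all libraries and *Timp4* under 2 CPM.

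Markers of some structural cells were lower with the genes that fell, and those of others were not. Alveolar type 1 markers (5, none at 0) summed to 2362 to 2625 CPM in WT-saline and 1574 to 1940 in WT-OVA libraries, with 4 of 5 called lower in each genotype. Mesothelial markers summed to 155 to 192 CPM and 86.1 to 123, with 4 of 4 called lower in each genotype, and 2 of 6 endothelial and 2 of 3 club cell markers were called lower in each. Markers of the heart muscle around pulmonary veins were called lower for 1 of 4 in WT and 4 of 4 in *Has2*+/− mice, and those of smooth muscle for 0 of 5 and 3 of 5. Alveolar type 2 markers were called higher for 1 of 5 and 2 of 5, and no ciliated cell marker was called of 4 tested. Fibroblast markers were called lower for 1 of 7 in WT and 2 of 7 in *Has2*+/− mice and none higher, with median log2 fold changes of −0.38 and −0.32. Their sums overlapped, at 2211 to 2307 CPM in WT-saline and 1930 to 2508 in WT-OVA libraries. The part of these cells in the falls of *Timp3* and of the ADAMTS and ADAMTSL genes was not tested.

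The regulators of these families, 29 genes listed from general knowledge, moved in both directions, with 26 of them past the filter. In WT mice 6 rose and 5 fell and in *Has2*+/− mice 4 rose and 5 fell, 4 in each direction being called in both. That is 42.3% and 34.6% of those tested, beside 21.9% and 18.2% of all genes. Over all genes, 14.3% were called the same way in both genotypes. *Reck*, a membrane-anchored inhibitor of MMPs and of ADAM10, fell, with log2 fold changes of −0.96 (SE 0.14, adjusted p = 1.82e-05) in WT and −0.84 (SE 0.14, adjusted p = 1.56e-04) in *Has2*+/− mice. *Cd44*, a hyaluronan receptor that holds MMPs at the cell surface, rose by 0.70 (SE 0.11, adjusted p = 4.87e-05) in WT and 0.72 (SE 0.12, adjusted p = 1.01e-04) in *Has2*+/− mice. *Tspan10*, a tetraspanin of the group that carries ADAM10 to the cell surface, rose by 3.12 (SE 0.52, adjusted p = 1.03e-04) in WT and 3.61 (SE 0.56, adjusted p = 7.43e-05) in *Has2*+/− mice. Its level was near 0, at 0 to 0.395 CPM in saline and 0.960 to 3.32 in OVA libraries. *Tspan15*, of the same group, fell, by −0.47 (SE 0.09, adjusted p = 2.77e-04) in WT and −0.48 (SE 0.09, adjusted p = 5.43e-04) in *Has2*+/− mice. *Tspan5*, *Tspan14*, *Tspan17* and *Tspan33* were not called in either genotype. *Pcolce*, which helps a protease of another family to trim procollagen, fell, with log2 fold changes of −0.51 (SE 0.09, adjusted p = 1.60e-04) in WT and −0.37 (SE 0.09, adjusted p = 0.00538) in *Has2*+/− mice.

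Whether loss of 1 copy of *Has2* changed these genes was asked within each treatment. Under OVA no member was called between *Has2*+/−-OVA and WT-OVA, and 0% of all genes were (edgeR). DESeq2 called none either. At an unadjusted p under 0.05, 7 of 49 members differed, beside 7.73% of all genes, and all 7 were lower in *Has2*+/−-OVA: *Adamts9*, *Adam8*, *Adam19*, *Mmp23*, *Mmp25*, *Mmp14* and *Adamtsl1*. Fold changes were negative for 35 of 49 members, with a median of −0.083 beside 0.0041 over all genes. The 95% interval lay between −1 and 1 on the log2 scale for 43 of 49 members. Negative fold changes were also seen for 5 of 5 macrophage, 5 of 5 smooth muscle, 4 of 4 eosinophil and 3 of 3 neutrophil markers tested. They were positive for 4 of 4 T cell, 3 of 3 club cell and the 1 tested thymus or lymph node marker, and of both signs in the other lists. Library 18 was the highest *Has2*+/−-OVA library in all 4 T cell markers, with *Cd3e* at 49.6 CPM. The other libraries of its group read 18.9 to 25.2 CPM. Library 18 also held 19.5 CPM of *Dntt*, of the thymus or lymph node list, where no other library passed 1.60 CPM. The T cell signs therefore lean on 1 library. Under saline, 5 of 5 macrophage and 3 of 3 neutrophil markers were negative between genotypes as well, whereas 5 of 5 smooth muscle markers were positive. None of these markers was called, and their part was not tested.

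**Figure D4:**
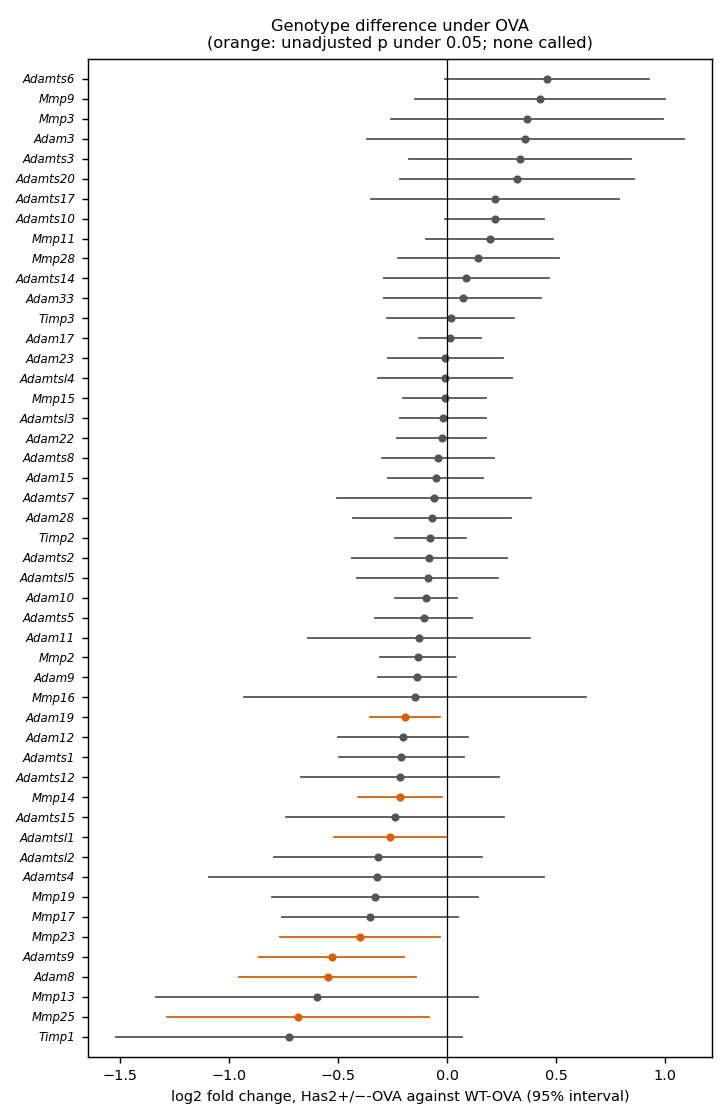
Log2 fold change of *Has2*+/−-OVA against WT-OVA for the 49 tested members, ordered by value, with 95% intervals. The 7 members in orange have an unadjusted p under 0.05 and lie below 0, and none was called.

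*Adamts9* had the smallest p of the members, with −0.53 (95% interval −0.86 to −0.20, unadjusted p = 0.00345, adjusted p = 0.394) under OVA. Its WT-OVA libraries read 91.2 to 173 CPM and its *Has2*+/−-OVA libraries 76.9 to 102, which overlapped. *Adam8* had −0.55 (95% interval −0.96 to −0.14, unadjusted p = 0.0107, adjusted p = 0.505), and its *Has2*+/−-OVA libraries, 57.1 to 72.6 CPM, were all below the WT-OVA libraries, 75.8 to 114. Groups without overlap were found for *Adam8* and *Adamtsl1* alone of 49 members, both lower in *Has2*+/−-OVA, where 0.835% of all genes were separate in that direction and 1.07% in the other. *Mmp14* had −0.22 (95% interval −0.41 to −0.02, unadjusted p = 0.0303, adjusted p = 0.579), with groups that overlapped.

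Under saline no member was called between genotypes and 0% of all genes were. At an unadjusted p under 0.05, 2 members differed, beside 6.94% of all genes, and no member had separate groups, beside 0.869% (higher) and 0.828% (lower) of all genes. *Adamts5* was higher in *Has2*+/−-saline, at 0.32 (95% interval 0.09 to 0.56, unadjusted p = 0.00862, adjusted p = 0.608). The other was *Mmp17*. In the test of the difference between the 2 OVA responses no member and 0% of all genes were called, and 4 members had an unadjusted p under 0.05, beside 4.1% of all genes. They were *Adamts5* with −0.43 (95% interval −0.75 to −0.11, unadjusted p = 0.0109, adjusted p = 0.9999), *Mmp14* with −0.36 (95% interval −0.66 to −0.07, unadjusted p = 0.0172, adjusted p = 0.9999), *Adamts9* with −0.57 (95% interval −1.05 to −0.09, unadjusted p = 0.0216, adjusted p = 0.9999) and *Adam12* with −0.48 (95% interval −0.92 to −0.03, unadjusted p = 0.0364, adjusted p = 0.9999). The interval for *Adam17* was −0.20 to 0.22, the rise in *Has2*+/− mice minus that in WT mice.

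The 13 members under the filter were read by their counts. They were *Adam5*, *Adam6b*, *Adam7*, *Adam18*, *Adam21*, *Adam30*, *Adam32*, *Adamts13*, *Adamts19*, *Mmp21*, *Mmp24*, *Mmp27* and *Timp4*, and several of the ADAMs among them are known from testis or epididymis. *Timp4* (chr6:115241892-115252205), the inhibitor best known from the heart, had counts of 6, 3, 2, 6 and 6 in WT-saline, 9, 10, 0 and 2 in *Has2*+/−-saline, 2, 6, 2, 3 and 6 in WT-OVA and 6, 7, 3, 2 and 3 in *Has2*+/−-OVA. No difference was detectable at this depth, with exact p = 0.643, adjusted p = 0.947 for OVA in WT mice. *Adam5*, a gene of the male germ line, had counts of 6, 8, 8, 6 and 6 in WT-saline, 3, 4, 6 and 4 in *Has2*+/−-saline, 1, 3, 1, 3 and 5 in WT-OVA and 5, 4, 3, 2 and 3 in *Has2*+/−-OVA. WT-saline libraries were all above WT-OVA libraries (exact p = 0.00794, adjusted p = 0.206), and the first p is the smallest that 5 libraries against 5 can give.

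The membrane-type gene *Mmp24* had counts of 4, 13, 4, 15 and 9 in WT-saline, 10, 4, 8 and 6 in *Has2*+/−-saline, 7, 7, 3, 5 and 8 in WT-OVA and 2, 2, 5, 8 and 5 in *Has2*+/−-OVA. *Adamts19*, a gene of heart valves, had counts of 7, 8, 3, 5 and 6 in WT-saline, 5, 9, 10 and 4 in *Has2*+/−-saline, 3, 5, 4, 2 and 7 in WT-OVA and 7, 3, 1, 4 and 14 in *Has2*+/−-OVA. Both were present in every library and their groups overlapped in each comparison. *Adam7*, of the epididymis, had counts of 6, 12, 2, 6 and 6 in WT-saline, 4, 5, 7 and 3 in *Has2*+/−-saline, 3, 7, 5, 4 and 2 in WT-OVA and 0, 3, 9, 2 and 7 in *Has2*+/−-OVA. *Mmp21*, a gene of left and right patterning in the embryo, had counts of 9, 2, 3, 1 and 4 in WT-saline, 7, 5, 7 and 4 in *Has2*+/−-saline, 3, 3, 5, 4 and 5 in WT-OVA and 5, 1, 3, 3 and 7 in *Has2*+/−-OVA. In 52 exact permutation tests over the 13 members and 4 comparisons, 5 had an unadjusted p under 0.05, none had an adjusted p under 0.05, and the smallest adjusted p was 0.206. *Adam6b* has a near-identical copy, *Adam6a*, so its reads may be shared between them.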

How the data were processed

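Counts per gene were made by the authors, who mapped paired reads of 36 bases to mm10 and quantified them with CLC Genomics Workbench 10.1.1, and the counts are used as deposited. The labels and methods name a kit that depletes ribosomal RNA and marks strand, whereas the series description names a kit for mRNA, and the strand setting of counting is not given in the sources used here. The table holds 19 columns of counts, 38 further columns of scaled or transformed values of the same libraries, and fold changes, p-values and FDR of the authors' EDGE tests and ANOVA. Only the counts were used. Column names give a library's group but not its replicate, so libraries carry their running number (1 to 5 WT-saline, 6 to 9 *Has2*+/−-saline, 10 to 14 WT-OVA and 15 to 19 *Has2*+/−-OVA). No 2 libraries were identical. Gene starts in the file count from 0 and were raised by 1, after which 91.0% of positions equalled GENCODE M21.

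The test was the quasi-likelihood F test of edgeR 4.0.16 (with limma 3.58.1 and R 4.3.3), fitted to all genes with 1 mean per group and TMM factors. Genes were kept by filterByExpr at 10 counts, a total of 15 and a share of 0.7. The fit left 15 residual degrees of freedom, with a common coefficient of biological variation of 0.138. P-values were two-sided and adjusted by Benjamini and Hochberg over 14495 genes in each comparison. Members under the filter and *Has2* were compared by two-sided exact permutation tests of CPM. The fit was tested on simulated data. DESeq2 1.42.0, RLE factors, other filters and cutoffs, models of only the compared groups and fits without 1 library were the alternatives, with fits that leave out libraries 8, 9 and 19 added once the data had been seen. Tables and plots came from pandas 2.3.3, numpy 2.4.6 and scipy 1.17.1, and matplotlib 3.10.9, under Python 3.11.15.

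The members and lists were chosen with earlier results of these data known. Members given by library were up to 12 rises and 12 falls called in both genotypes, 6 called in 1, the 4 of smallest p between genotypes, the TIMPs, *Adam10*, *Adam17* and the 6 most counted under the filter. The 4 regulators of smallest p were named with their fold changes. Members and regulators named beyond these were chosen after their values were seen.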

Additional observations from a re-analysis of the deposited data

Results flagged for a closer look

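Of 96 sets of values examined (24 members in 4 groups), 5 held a library far from the others of its group by Dixon's criterion, about the number that chance gives, 1 in 20. *Adamts1* stood at 311.5 CPM in library 1 of WT-saline, where the other 4 libraries read 199.4 to 203.2, and at 260.0 CPM in library 8 of *Has2*+/−-saline, where the other 3 read 188.9 to 191.7. Library 13 of WT-OVA had 14.99 CPM of *Timp1*, with the other 4 at 6.80 to 8.81. *Adamtsl5* reached 52.39 CPM in library 11 of WT-OVA, with the others at 37.64 to 41.88, and *Mmp19* 37.02 CPM in library 2 of WT-saline, with the others at 24.1 to 27.25. Each of these libraries was the highest of its group, and the call of each gene in WT mice was kept when that library was left out.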

How the results depend on the processing

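No paired analysis was possible because the columns of the table carry no replicate numbers. RLE factors changed no call of a member. DESeq2 lost *Adam12* and gained *Adamtsl4* in WT mice and gained *Adamtsl3* and *Adamtsl5* in *Has2*+/− mice. A model of only the groups compared lost *Adam12*, *Adam22* and *Adamts4* and gained *Adamtsl4* and *Mmp9* in WT mice, and lost *Adamtsl1* in *Has2*+/− mice. Without the filter on low counts *Adam12* was lost and *Adamtsl5* gained, and with the stricter filter *Adamts4* was lost. At an adjusted p under 0.05, *Adamts9*, *Adamts14* and *Adamtsl4* were gained in WT mice and none lost, and 17 members were called in *Has2*+/− mice (7 higher and 10 lower). With a fold change above 2 there were 9 in WT mice (7 higher and 2 lower) and 4 in *Has2*+/− mice (3 higher and 1 lower), as a stricter cutoff must give fewer. Shares of all genes at these changed cutoffs are not given here, so the counts describe the members only. Leaving out each library in turn gave 13 to 21 calls in WT mice. The 13 came without library 4 or library 13, with 18.4% and 18.9% of all genes called. In *Has2*+/− mice it gave 11 to 15 calls, and in the comparisons of genotypes or their difference none. The cause was not tested. For *Has2* the exact p ran from 0.0397 (without library 14) to 0.397 under OVA. Signs turned in values that were not called. *Adam8* between genotypes under saline ran from −0.401 to 0.156 and *Adamts9* from −0.068 to 0.158 (log2) with 1 library left out, and the *Adam8* difference between responses was −0.52 with all libraries and 0.13 without libraries 8, 9 and 19. Depth left 13 members under the filter, and DESeq2 called no member between genotypes.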
